A study of Homo sapiens with 6 samples.

Results

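Keratins and the genes of epithelial cell junctions were followed in 2D cultures of A549, an established cell line from a human lung adenocarcinoma, with and without LA717. The genes were taken by symbol and comprised numbered keratins, claudins, cadherins, desmogleins, desmocollins, plakophilins, desmoplakin, the TJP scaffolds, occludin and EPCAM. This gave 91 of the 14884 genes named on the arrays, of which 48 were keratins and 43 were junction genes. Each gene was read from 1 probe set, the one with the highest mean over all 6 arrays. Only 2 cadherins outside the desmosome, CDH23 and CDH26, were among them, and the classical cadherins CDH1 and CDH2, and CDH17, were not analysed here. The list also held KRT42P, a pseudogene, and CLDN10-AS1, an antisense RNA.

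Cells were kept for 7 days on attachment plates in serum-containing DMEM. LA717, an agar of low molecular weight, was added at 0.03% (w/v) for the LA717 arrays, and Milli-Q water was added for the control arrays. Each group had 3 arrays from total RNA, and all 6 came from the same line without any genetic change. For the LA717 arrays the culture condition label speaks of low-attachment plates, while titles, descriptions and the treatment protocol speak of attachment plates, which were taken as correct. The labels do not say whether the 3 arrays of a group stem from separate cultures. The study's supplement describes its array fold changes between spheroids and 2D culture as means over independent experiments, without linking an experiment to a replicate number. The p-values measure the spread between these samples.

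Keratins are the intermediate filament proteins of epithelial cells. They assemble from a type I and a type II partner, KRT18 with KRT8 in simple epithelia, and other pairs in skin, mucosa, cornea and hair. Desmosomes anchor these filaments at the membrane, where desmogleins and desmocollins bind the neighbouring cell, and plakophilins, plakoglobin and desmoplakin connect them to the filaments. Tight junctions are built from claudins and occludin, held on the inside by the scaffolds of the TJP family.

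The deposited value is a log2 intensity per probe set and array. The array medians lay between 3.19 and 3.23, and arrays correlated with r between 0.9899 and 0.9913 across all 53617 probe sets. Of the lung epithelial or A549 markers, 10 of 13 were measured. KRT18, KRT19, KRT8, KRT7 and EPCAM stood above the median of all named genes (4.71), whereas the alveolar genes SFTPB, SFTPC and AQP5 and the lung transcription factor gene NKX2-1 stood below it in control (3.87, 4.32, 4.13 and 3.44) and the surfactant gene SFTPD stood just above it (4.76). Of the basal and squamous keratinocyte markers, 6 of 7 were measured, and their control means ran from 1.78 (DSG1) to 3.66, with KRT5 at 2.53. Standing above 4.71 was not particular to epithelial markers. The leukocyte gene CD14 (7.86) and the fibroblast genes LUM (6.18) and THY1 (5.17) did so in control. The other measured markers of leukocytes (LYZ), fibroblasts (DCN) and endothelium (PECAM1, VWF, KDR, CLDN5) stood below it. A gene was called dim when its mean was under 3.19, the median of all probe sets. By this measure 29 of 43 junction genes and 19 of 48 keratins were above it, against 10845 of 14884 named genes. The values carry no signal over background, and probe sets differ in their response, so the order of intensities given next is not an order of transcript amounts.

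Among junction genes the brightest signal in control came from the desmosome. DSG2, the desmoglein of simple epithelia, stood at 9.77, 9.75 and 9.59 on the 3 control arrays and at 9.73, 9.72 and 9.59 with LA717. DSP, which encodes desmoplakin, stood at 8.95 ± 0.056 in control (log2 intensity, SD, n = 3). TJP1, the gene of the tight junction scaffold ZO-1, stood at 8.92 ± 0.069. The values of DSG2 lay above those of both, while DSP and TJP1 overlapped. The next group held the claudin gene CLDN1 (8.25 ± 0.25), the occludin gene OCLN (8.16 ± 0.13) and the plakophilin gene PKP2 (8.10 ± 0.11), whose values overlapped in that order. A step of 0.72 separated PKP2 from TJP3 (7.38 ± 0.14), which overlapped with CLDN3 (7.34 ± 0.11), as CLDN3 did with EPCAM (7.23 ± 0.077), the gene of an epithelial adhesion molecule. The desmocollin gene DSC2 followed at 6.94 ± 0.21.

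Within families the signal was uneven, and the median of all probe sets was passed by 10845 of 14884 named genes. Of 7 desmosomal cadherin genes 3 were above the median of all probe sets, namely DSG2, DSC2 and DSC3, whereas DSG1, DSG3, DSG4 and DSC1 were dim. Those dim genes are known from stratified epithelium and hair, but dimness did not follow tissue throughout. DSC3 stood at 5.42 in control, and the hair keratin gene KRT37 at 5.01. All 5 desmosomal plaque genes were above it, from PKP1 at 3.33 (percentile 28.2 of named genes) to DSP. Of 25 claudin entries 15 were above it, and their control means ran from 1.61 (CLDN10-AS1) to 8.25 (CLDN1). CLDN2, which forms a paracellular cation pore, stood at 5.56 in control, and CLDN18, a claudin of stomach and alveolar epithelium, at 3.57. CDH23 and CDH26 stood at 3.69 and 3.51.

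Among keratins 1 probe set stood far above the others. The brighter probe set that names KRT18 gave 11.12, 11.05 and 11.23 in control and 11.04, 11.05 and 11.06 with LA717. Few genes reached this level (percentile 99.7 of all named genes). A second probe set that names KRT18 gave 6.56 ± 0.021 in control, so the 2 probe sets of 1 gene gave very different intensities. By probe set number the second (16751554) lies near KRT7 (16751491), while the brighter (16938654) lies apart from all other keratins. Which of the 2 reads KRT18 transcripts was not tested. KRT19, a type I keratin of simple epithelia, followed at 6.48 ± 0.10. KRT8, the type II partner of KRT18, stood at 6.18 ± 0.14, and its only probe set here is annotated to a non-coding transcript (NR_045962). On the probe sets used, the control values of KRT18, KRT19 and KRT8 did not overlap with each other. KRT19 and KRT8 lay close (lowest KRT19 value 6.38, highest KRT8 value 6.34), and the second KRT18 probe set overlapped with KRT19. KRT4, a keratin of mucosal epithelium, stood at 5.84 ± 0.19, KRT80 at 5.83 ± 0.19 and KRT7, found in simple and ductal epithelia, at 5.71 ± 0.14, and these neighbours overlapped. KRT20, the keratin of intestinal, gastric and urothelial cells, stood at 5.07 ± 0.21. The hair keratin genes KRT37 and KRT85 stood at 5.01 ± 0.23 and 4.69 ± 0.11, and KRT31 ranged from 3.85 to 4.67 within the control group. In total 29 keratins were dim, among them KRT1, KRT5 and KRT14 of epidermis. The plot of baseline signal shows the graded junction genes and the isolated brighter probe set of KRT18. Its second probe set, at 6.56, is not drawn and was not isolated.

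**Figure D1:**
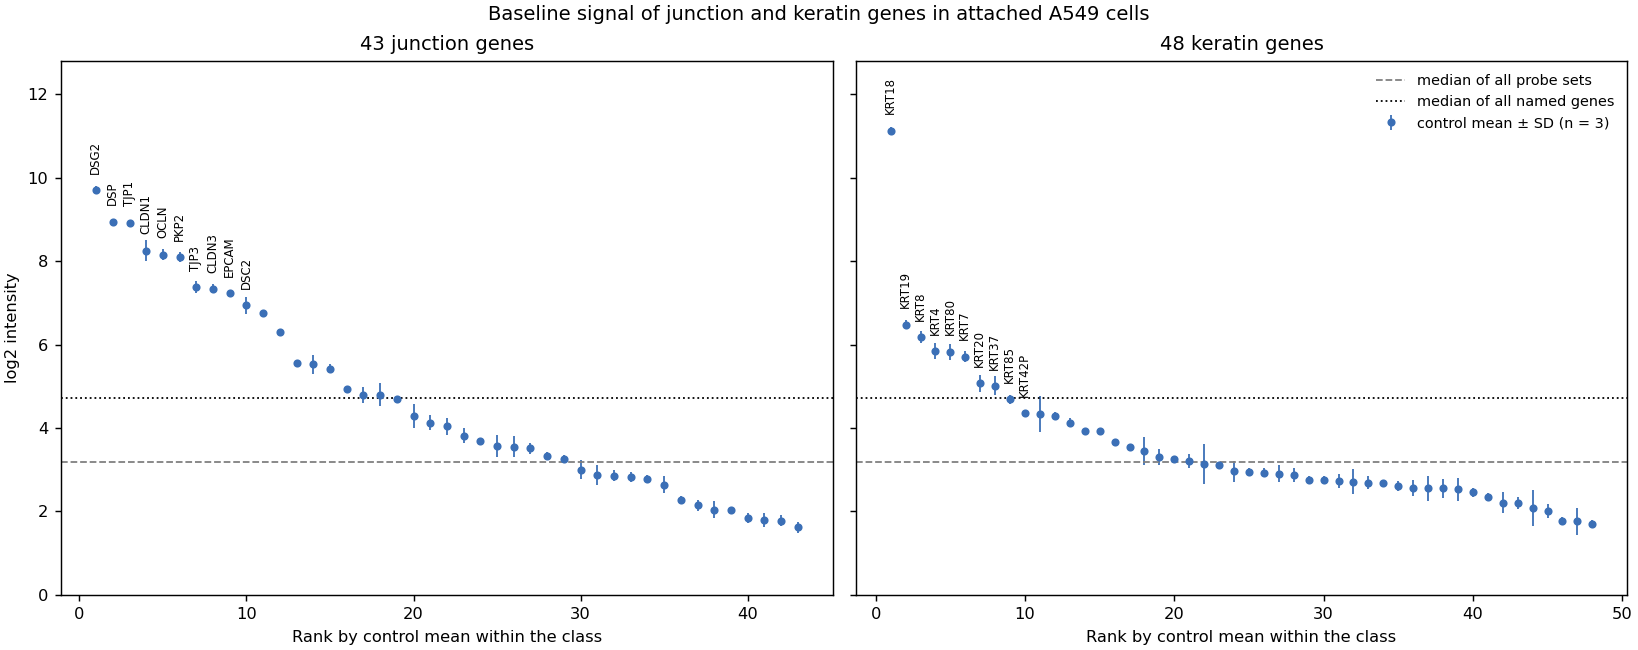
Mean log2 intensity of the control arrays (y axis, bars are the SD, n = 3) against rank within the class (x axis), for 43 junction genes on the left and 48 keratins on the right. The dashed line is the median of all probe sets (3.19) and the dotted line that of all named genes (4.71). The brighter KRT18 probe set at 11.13 stands apart from KRT19 at 6.48, while the second KRT18 probe set, at 6.56, is not drawn.

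The 2 classes also differed in the sequence before their start sites, which the choice of genes did not use. Starts and sequences came from the RefSeq promoter table (GRCh38.p14), which held 66 of the 91 genes, 34 junction genes and 32 keratins. The motif TATAAA, searched on the gene's strand in the last 50 bases before the start, was found in 15 of 32 keratins and 0 of 34 junction genes, against 3.33% of the 27305 genes in the table. On both strands over 250 bases it was found in 59.4% of the keratins, 5.88% of the junction genes and 13.05% of all genes. The motif GGGCGG, on both strands over 250 bases, was found in 4 of 32 keratins, 19 of 34 junction genes and 46.2% of all genes. The motif CAGGTG, on both strands over 250 bases, was found in 6 keratins, 12 junction genes and 20.6% of all genes. A gene with several starts counted once if any start held the motif. These matches describe the letters only, and the motifs were chosen after the values were known.

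Shown are the 250 bases before the start, 5′ to 3′ on the gene's strand, for the brightest junction genes DSG2 (chr18:31497927-31498176, plus strand) and DSP (chr6:7541421-7541670, plus strand), for KRT37 (chr17:41424586-41424835, minus strand), the brightest keratin of the table with TATAAA in that window, and for KRT20 (chr17:40885243-40885492, minus strand), the keratin with the greatest difference above the dim range. Capitals mark TATAAA and GGGCGG on either strand.
DSG2: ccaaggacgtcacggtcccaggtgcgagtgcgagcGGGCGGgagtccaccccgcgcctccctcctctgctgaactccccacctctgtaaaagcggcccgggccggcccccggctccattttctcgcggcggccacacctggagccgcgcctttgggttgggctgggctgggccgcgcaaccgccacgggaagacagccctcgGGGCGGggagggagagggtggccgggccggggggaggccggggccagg
DSP: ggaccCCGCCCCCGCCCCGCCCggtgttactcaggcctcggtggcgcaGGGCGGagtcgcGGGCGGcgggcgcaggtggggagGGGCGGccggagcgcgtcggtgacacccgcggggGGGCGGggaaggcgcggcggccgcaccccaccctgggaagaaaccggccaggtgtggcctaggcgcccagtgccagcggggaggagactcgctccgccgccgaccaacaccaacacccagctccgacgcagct
KRT37: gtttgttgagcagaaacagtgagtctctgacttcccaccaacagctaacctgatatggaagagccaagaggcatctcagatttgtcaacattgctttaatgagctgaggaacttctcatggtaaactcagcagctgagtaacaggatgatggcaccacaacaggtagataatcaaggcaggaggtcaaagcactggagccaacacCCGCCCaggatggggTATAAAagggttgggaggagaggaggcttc
KRT20: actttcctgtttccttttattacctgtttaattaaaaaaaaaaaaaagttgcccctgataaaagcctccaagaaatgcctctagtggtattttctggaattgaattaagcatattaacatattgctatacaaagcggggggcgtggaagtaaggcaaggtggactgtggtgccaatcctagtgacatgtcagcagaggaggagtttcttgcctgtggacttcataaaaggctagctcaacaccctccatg
DSG2 held 2 GGGCGG matches and DSP 7, some sharing a base, and neither held TATAAA. KRT37 held 1 of each, with the first base of TATAAA 30 bases before the start. KRT20 held neither.

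Setting LA717 against control addresses whether the agar itself alters these transcripts in attached cells. None of the 91 passed the test. The lowest adjusted p by limma was 0.908 (KRT72), and 0 of 53617 probe sets passed (0%). At an unadjusted limma p under 0.05 there were 5 of 91 genes, against 5.31% of all probe sets and 4.4% of named genes, so the share was near the background. The 3 values of one group lay wholly above or below those of the other in 10 of 91 genes, where this was so for 11.1% of all probe sets and 11.5% of named genes. These 10 were KRT36, KRT3 and KRT12 on the high side with LA717 (against 4.86% of named genes on that side) and KRT20, KRT72, KRT42P, KRT38, KRT6C, PKP2 and PKP1 on the low side (against 6.66%), a list named after the values were seen. By class these were 8 of 48 keratins and 2 of 43 junction genes. Without any 1 array the number ran from 14 to 22, since fewer arrays overlap less often by construction.

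The size of the differences was small. The log2 difference (LA717 minus control) ran from −0.51 to 0.33, and 52 of 91 were below 0, against 52.1% of named genes. Its median was −0.02 for keratins, −0.02 for junction genes and −0.01 for all named genes. The 95% interval excluded a 2-fold difference in either direction in 90 of 91 genes, against 99.6% of named genes. The exception was the dim hair keratin gene KRT33B, with an interval from −1.01 to 0.26. A 1.5-fold difference was excluded in 42 of 43 junction genes and 36 of 48 keratins, against 91.6% of named genes. On dim probe sets a narrow interval does not bound the change of the transcript.

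**Figure D2:**
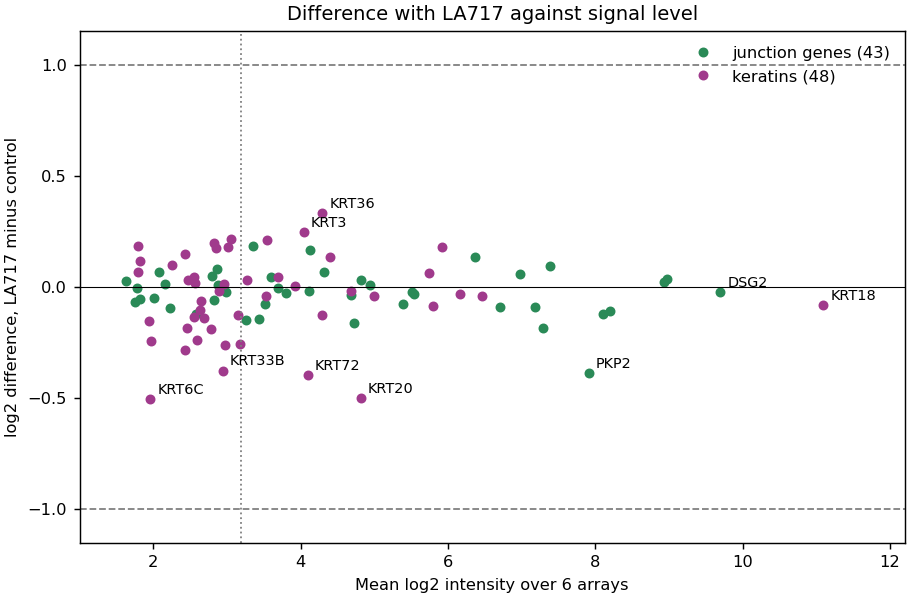
Log2 difference, LA717 minus control (y axis), against the mean log2 intensity over 6 arrays (x axis) for each of the 43 junction genes (green) and 48 keratins (purple). Dashed lines mark 2-fold and the dotted line the median of all probe sets (3.19); every point lies between −0.51 and 0.33.

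The keratin with the greatest difference above the dim range was KRT20. It stood at 5.25, 5.11 and 4.84 in control and at 4.72, 4.70 and 4.28 with LA717. The groups did not overlap, although control replicate 3 and LA717 replicate 1 lay close to each other. The difference was −0.50 (SE 0.16, 95% interval −0.87 to −0.13), with control 1.42-fold above LA717, an unadjusted p of 0.0151 and an adjusted p of 0.92 by limma. The mucosal keratin gene KRT4 gave 6.03, 5.66 and 5.83 in control and 5.85, 5.83 and 5.60 with LA717, so its groups overlapped. In bulk RNA, fewer cells with a transcript and less of it per cell cannot be told apart.

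KRT72, a type II keratin of the inner root sheath of hair, had the lowest p of the list. Its values were 4.40, 4.27 and 4.21 in control and 3.93, 3.75 and 4.004 with LA717. The difference was −0.40 (SE 0.10, 95% interval −0.64 to −0.15), with an adjusted p of 0.908 by limma. KRT6C, from a trio of near-identical keratin genes with KRT6A and KRT6B, gave 2.04, 2.09 and 2.50 in control and 1.61, 1.77 and 1.73 with LA717, a difference of −0.51 (interval −0.82 to −0.19). It was among the dimmest genes of the arrays (percentile 5.58 of named genes), and its probes may read its paralogs too.

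On the high side were KRT36 and KRT3. KRT36, a hair keratin gene, stood at 4.25, 4.09 and 4.04 in control and at 4.32, 4.30 and 4.75 with LA717. LA717 replicate 3 lay above the others of its group, and the difference of 0.33 (SE 0.14) became 0.19 without that array. KRT3, a cornea keratin gene, stood at 3.92 ± 0.074 in control and 4.17 ± 0.16 with LA717, and its cornea partner KRT12, which was dim, at 1.71 ± 0.092 and 1.89 ± 0.011 (SD, n = 3). The limma adjusted p was 0.92 for each of the 3 genes.

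The keratins of simple epithelia had differences near 0. KRT18 gave a difference of −0.08 with an interval from −0.29 to 0.12, and its second probe set gave −0.12 (interval −0.31 to 0.06). The corresponding values were −0.04 for KRT19 (−0.30 to 0.21), −0.03 for KRT8 (−0.32 to 0.26) and 0.06 for KRT7 (−0.18 to 0.31). Each of these intervals excluded a 1.5-fold difference, and the sign for KRT19, KRT8 and KRT7 turned when single arrays were left out. KRT80 stood at 0.18 (−0.14 to 0.49). Among epidermal keratins KRT14 gave 0.18 and KRT5 0.05, both dim. With single arrays left out KRT18 ran from −0.12 to −0.031, KRT80 from 0.077 to 0.27 and KRT14 from 0.030 to 0.36, and KRT5 changed sign. Type I keratins (27) had a median difference of −0.04 and type II keratins (21) of 0.005. The 22 keratins on the chromosome of KRT5 and KRT8, which include KRT18, had a median of −0.006, and the 26 on that of KRT19 and KRT20 had a median of −0.04.

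Among junction genes the greatest difference was that of PKP2, a plaque protein gene of the desmosome. It stood at 8.22, 8.09 and 8.001 in control and at 7.87, 7.59 and 7.69 with LA717. All control values lay above all LA717 values. The difference was −0.39 (SE 0.11, 95% interval −0.64 to −0.13), with control 1.31-fold above LA717, an unadjusted p of 0.0089 and an adjusted p of 0.917 by limma. It was the only junction gene with an unadjusted limma p under 0.05, and the only one whose interval reached past 1.5-fold. With single arrays left out it ran from −0.46 to −0.32. Of the other plakophilins, PKP1, which is typical of stratified epithelium, stood at 3.33 ± 0.10 and 3.18 ± 0.044 without overlap, PKP3 at 6.31 ± 0.052 and 6.44 ± 0.22 with overlap, and PKP4 differed by −0.09 (SD, n = 3). With single arrays left out the difference ran from −0.18 to −0.088 for PKP1 and from 0.037 to 0.25 for PKP3.

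The desmosomal partners of PKP2 in the membrane and at the filament had differences near 0. The plakoglobin gene JUP of the plaque, outside the list and described below, differed by −0.23 (−0.42 to −0.04). DSG2 differed by −0.02 (interval −0.24 to 0.20), DSP by 0.04 (−0.22 to 0.29) and DSC2 by 0.06 (−0.28 to 0.41). The sign for each of the 3 turned when single arrays were left out. For tight junctions, TJP1 differed by 0.02 (−0.18 to 0.23), OCLN by −0.12 (−0.41 to 0.17), TJP3 by −0.19 (−0.48 to 0.11) and CLDN1 by −0.11 (−0.47 to 0.25). CLDN3, a claudin of simple epithelia that seals the junction, stood at 0.09 (−0.13 to 0.31). The groups of each overlapped. With single arrays left out OCLN ran from −0.19 to −0.017, TJP3 from −0.28 to −0.091, CLDN1 from −0.25 to −0.0049 and CLDN3 from 0.059 to 0.16, and TJP1 changed sign.

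Claudins split evenly, with 13 of 25 positive and a median difference of 0.007. The highest was CLDN25 at 0.18 (3.26 ± 0.075 in control and 3.45 ± 0.12 with LA717, SD, n = 3), followed by CLDN4 at 0.16 and CLDN3. CLDN14 stood at 0.07, and the lowest was CLDN15, a pore-forming claudin of the intestine, at −0.16. EPCAM stood at −0.09 (−0.34 to 0.16). CDH26 stood at −0.14 and CDH23 at −0.004. With single arrays left out CLDN4 ran from 0.045 to 0.28, CLDN15 from −0.30 to −0.057, EPCAM from −0.18 to −0.037 and CDH26 from −0.25 to −0.083. Of the 25 claudin entries 0 had groups that did not overlap, against 11.5% of named genes, and 0 had an unadjusted limma p under 0.05, against 4.4%.

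**Figure D3:**
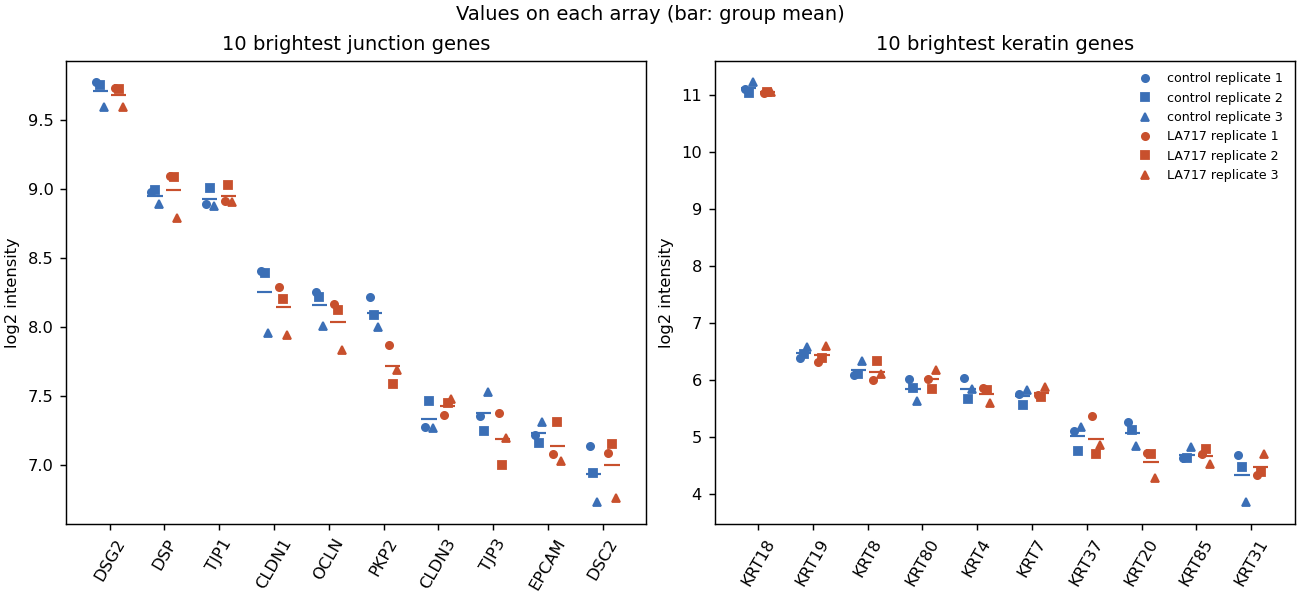
Log2 intensity on each of the 6 arrays (y axis) for the 10 brightest junction genes (left) and keratins (right), with blue for control, red for LA717, a marker shape for each replicate number and a bar for the group mean. PKP2 and KRT20 are the genes here whose groups do not overlap.

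**Figure D4:**
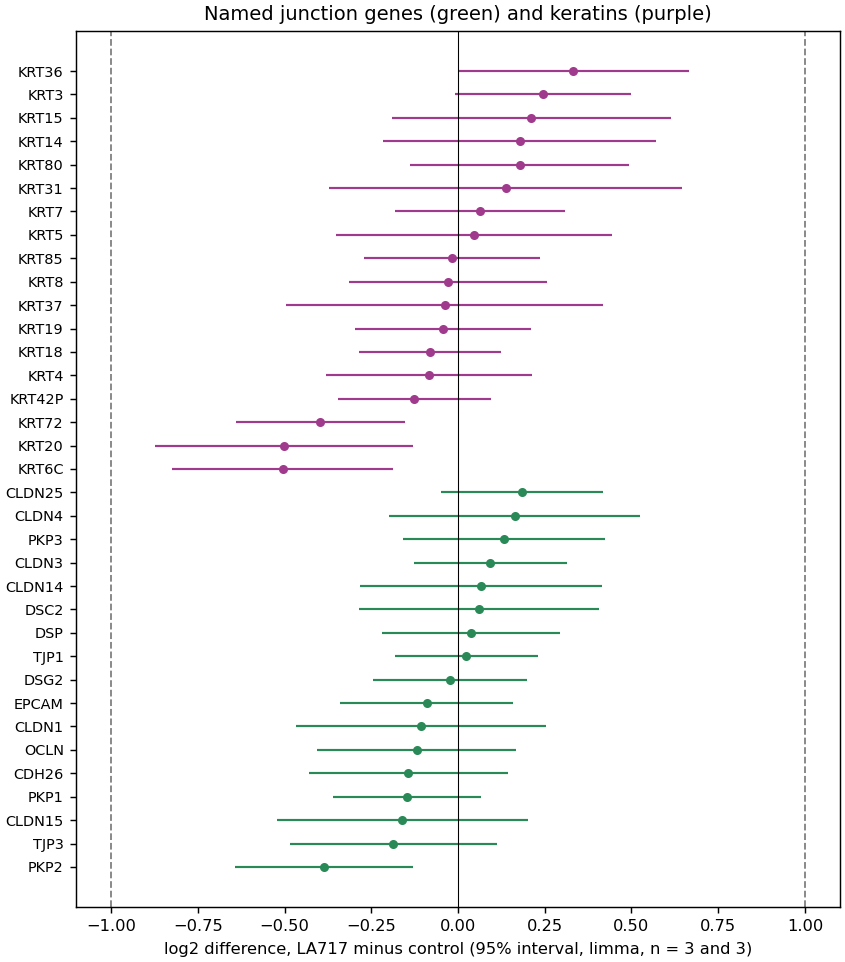
Log2 difference, LA717 minus control, with the 95% interval by limma (x axis, n = 3 per group) for the 35 genes chosen by the naming rule, keratins in purple and junction genes in green. Dashed lines mark 2-fold, which lies outside each interval shown; the intervals of PKP2, KRT72, KRT20 and KRT6C lie below 0, and that of KRT36 begins at 0.00.

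The bright junction genes often shared the same low array. In 6 of the 10 brightest, DSG2, DSP, TJP1, CLDN1, OCLN and DSC2, the array numbered 3 was the lowest of its group in both groups, against 18.3% of the genes at least as bright as DSC2 and 12.1% of all named genes. CLDN1 stood at 8.40, 8.39 and 7.96 in control and at 8.29, 8.21 and 7.94 with LA717, and OCLN at 8.25, 8.22 and 8.01 and at 8.16, 8.12 and 7.84. For TJP1 arrays 1 and 3 were almost level in both groups. Over the full classes array 3 was lowest in both groups in 8 of 43 junction genes and 8 of 48 keratins. The cut at the 10 brightest and this count were made after the values were seen. The sources used here do not say what a replicate number stands for, and its part in these values was not tested.

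Partner genes outside the list gave small differences as well. Of 49 measured plaque, tight junction, nectin, linker, filament and transcription factor genes, 25 were positive, 0 passed the adjusted p by limma, 2 had an unadjusted p under 0.05 and 8 had groups that did not overlap (3 higher, 5 lower), with a median of 0.003. Among all named genes these shares were 4.4% and 11.5%. JUP, the gene of plakoglobin in the desmosomal plaque, stood at 10.53, 10.53 and 10.58 in control and at 10.38, 10.30 and 10.27 with LA717, without overlap. Its difference was −0.23 (interval −0.42 to −0.04, limma adjusted p = 0.92). SNAI2, the gene of the repressor SLUG that acts on epithelial junction genes, stood at 4.83 ± 0.16 and 5.21 ± 0.21 (SD, n = 3), also without overlap, a difference of 0.38 (limma adjusted p = 0.92). The rest of its list did not share this rise. Of the 14 measured transcription factor genes 6 differences were positive and 8 negative, with a median of −0.03. ZEB1, ZEB2 and TWIST1 differed by −0.14, −0.08 and −0.03, and SNAI1 by 0.007. The filament genes PRPH and GFAP, of neurons and glia, differed by 0.44 and 0.27 with groups that overlapped. With single arrays left out PRPH ran from 0.23 to 0.58 and GFAP from 0.15 to 0.37. Of 14 listed intermediate filament genes other than keratins 8 were measured, and all 8 differences were positive, against 7132 of 14884 named genes. They ran from 0.003 (LMNA) to 0.44 with a median of 0.17, VIM among them at 0.17 (limma adjusted p = 0.92), and in 0 of 8 did the groups stand apart.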

How the data were processed

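The study's methods describe GeneChip Human Gene 2.0 ST arrays of silica-column total RNA. The labelling protocol in the labels names a 3′ IVT kit instead, and this difference was left unresolved. The authors deposited 1 log2 intensity per probe set and array, made with Affymetrix Expression Console per the labels. For the summarisation method, software version and genome build, the sources used here give nothing. Values entered the tests as deposited, without further normalization.

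Groups came from the sample titles. The difference LA717 minus control was fitted on all 53617 probe sets and 6 arrays with limma 3.58.1 in R 4.3.3 (lmFit, eBayes, two-sided, Benjamini-Hochberg over all probe sets, threshold 0.05), with no block. The study selected genes by a 2-fold change and names no test for the arrays. Gene names came from the platform annotation, and all 91 symbols equalled those of RefSeq by Entrez identifier. The genes, lists, motifs and rules were chosen with earlier results of these data known. The 35 genes named by rule were, in each class, the 10 brightest, the 6 highest and 6 lowest differences above the dim range, those with an unadjusted p under 0.05, KRT4 and KRT20, and simple and basal epithelial markers. Any other name was chosen after its values were seen. The partner genes named are the 4 with the greatest difference in size, with LMNA, VIM, ZEB1, ZEB2, TWIST1 and SNAI1 added. The fit was tested on simulated data. Alternatives were an intensity trend, robust variance, array weights, the replicate block, quantile normalization, median centring, filters, averaging the probe sets of a gene, and leaving out each array. Figures were drawn with matplotlib 3.10.9.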

Additional observations from a re-analysis of the deposited data

How the results depend on the processing

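The number of probe sets and of genes in the list past the adjusted p by limma was 0 under each alternative run, 2845 probe sets having an unadjusted p under 0.05. With each array left out the median difference ran from −0.0526 to −0.00595 for keratins and from −0.0427 to −0.0016 for junction genes, and the number of genes whose groups did not overlap from 14 to 22, each above the 10 of all 6 arrays, since fewer arrays overlap less often. The intensity trend, robust variance, replicate block and filters leave each difference as it is, so no sign could change under them. Averaging probe sets does the same for every gene of the list but KRT18. Median centring shifts all differences by the same small amount. The values of all these settings are counted among the following, so many signs were fixed in advance. Of 583 values of 39 named genes, 560 kept their sign and 0 passed adjustment. All 23 that changed sign did so with an array left out. These ranges were −0.0554 to 0.220 for CLDN14, −0.0443 to 0.179 for DSC2, −0.0799 to 0.0215 for DSG2, −0.0137 to 0.136 for DSP, −0.0154 to 0.0634 for TJP1, −0.122 to 0.0174 for KRT19, −0.106 to 0.308 for KRT31, −0.237 to 0.100 for KRT37, −0.175 to 0.0122 for KRT4, −0.0832 to 0.195 for KRT5, −0.0133 to 0.117 for KRT7, −0.123 to 0.0503 for KRT8 and −0.0769 to 0.0567 for KRT85. Their cause was not tested. Arrays of the same number deviated together only weakly over all probe sets (correlations 0.024, 0.0149 and 0.0329), and they were treated as unpaired. In the fit that takes replicate number as a block, 0 probe sets and 0 genes of the list passed. The block cannot change a difference in this balanced design, and the overlap count does not use the fit. The medians (−0.0237 for keratins, −0.0214 for junction genes) and the 10 genes without overlap were thus the same by construction. The unadjusted limma p in this fit was 0.00251 for KRT20 and 0.00894 for PKP2 (adjusted p = 0.89 for both). The second probe set of KRT18 was chosen after the data were seen. Dim probe sets, 43 of the 91, limit what could be seen.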

Other observations

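The spread of hair keratins between arrays is given as a description, without a test. The 13 measured (KRT31, KRT32, KRT33A, KRT33B, KRT35 to KRT40 and KRT83 to KRT85) had a median SD within groups of 0.25 (log2), against 0.15 for junction genes and 0.13 for all named genes, and 9 of them were dim. Dim keratins as a class had a median SD of 0.20 and the others 0.12, whereas dim junction genes had 0.14 and the others 0.16. KRT33B was the clearest case, at 2.81, 2.90 and 3.68 in control and at 3.18, 2.44 and 2.64 with LA717.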
